A study of Homo sapiens with 12 samples.

Results

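The ADAM, ADAMTS and MMP genes encode metalloproteinases that cut proteins at the cell surface and in the extracellular matrix, and the TIMP genes encode their inhibitors. All rows of the expression table whose gene name was ADAM, ADAMTS, MMP or TIMP followed by a number were taken, 67 of 19973 genes. They were 20 ADAM genes, 19 ADAMTS genes, 24 MMP genes and 4 TIMP genes. One of the MMP rows, MMP24OS, is a gene on the strand opposite MMP24 and not a protease. The rule used names only and no measured value.

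RNA was sequenced from 12 libraries of prostate cancer cell lines, 3 for each of 4 groups. C4-2, a castration-resistant derivative of LNCaP, carried either a control lentivirus (lv-control) or a lentivirus for ARv7 (lv-ARv7), a receptor splice variant studied in castration-resistant disease. 22Rv-1, a line from the CWR22R xenograft that makes ARv7 on its own, carried a lentivirus with a control short hairpin (lv-shcontrol) or one that depletes ARv7 (lv-shARv7). All 4 groups were infected with lentivirus and grown in RPMI medium with fetal bovine serum, and the design names puromycin selection for the ARv7 and ARv7-depleted cells. Cells were plated in triplicate dishes. The sources used here do not say how many selected lines stood behind each group, which promoter drives ARv7 or what sequence the hairpin targets. The p-values therefore reflect dish-to-dish spread alone, and whatever else set the selected lines apart cannot be told apart from ARv7.

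ADAM proteins are membrane-anchored. Those with an intact active site shed growth factors, receptors and adhesion molecules from the cell surface, while others have lost the active site and serve in cell contact or sperm maturation. ADAMTS enzymes are secreted and cut proteoglycans, procollagens and von Willebrand factor. MMPs are secreted or membrane-bound, are made as inactive precursors, and cut collagen, laminin and one another, and TIMPs block their active sites. In prostate cancer these enzymes are studied for invasion, for release of receptor ligands, and, in bone, for matrix turnover.

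Libraries held 12318529 to 14672948 read counts, at which 3 counts of a gene stood at 0.204 to 0.244 CPM (counts scaled to a common library total). All intervals given for counts cover counting error only. C4-2 control replicate 3 stood apart from the other controls, where a chi-square of the counts, divided by its degrees of freedom, gave 6.85 and 12.3, and 2.10 to 4.64 for other replicate pairs. The 10 prostate luminal markers were all detected in every library, with a summed level of 1215 to 1229 FPKM (counts scaled to gene length and library total) in C4-2 control, 2199 to 2213 with ARv7, 965 to 979 in 22Rv-1 shcontrol and 864 to 881 with shARv7. Summed fibroblast markers, which with FAP at 0 in all libraries were otherwise low, were 0.895 to 1.14, 1.83 to 2.10, 10.7 to 11.8 and 4.15 to 4.97 FPKM in the same order. The 6 endothelial markers summed to 0.597 to 0.826, 0.805 to 0.902, 0.0232 to 0.0397 and 0.0602 to 0.267 FPKM. The 7 leukocyte markers summed to 1.05 to 2.04, 0.0708 to 0.722, 0.566 to 1.08 and 1.16 to 7.07 FPKM, so that they were higher with shARv7, with CD3E at 0 there. The 7.07 is shARv7 replicate 1, led by LYZ, beside 1.16 and 2.12 in the others, and of the members called in 22Rv-1 other than MMP15 and ADAMTS3, which were not recomputed, none lost its call without that library. Single luminal markers did not move together. With edgeR, 7 of 10 (70%) were higher and 2 (20%) lower in C4-2 with ARv7, beside 29.6% and 29.5% of all tested genes. In 22Rv-1 after depletion, 5 (50%) were higher and 4 (40%) lower, beside 23.9% and 24.1%, although their sum was lower. KLK3 had 642 counts in shcontrol and 990 with shARv7, and TMPRSS2 had 2086 and 914. The part of these marker levels in the protease results was not tested, and in bulk RNA fewer cells of a type and less RNA per cell cannot be told apart.

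Most of the family was silent or close to it in these cells. A mean of at least 1 FPKM was reached by 15 of the 67 genes in C4-2 control, 17 with ARv7, 23 in 22Rv-1 shcontrol and 21 with shARv7. Only 5, 6, 7 and 7 reached 10 FPKM, and 4 genes (ADAM30, MMP20, MMP27 and TIMP4) had no count in any library. The members together took 0.132% to 0.139% of all counts in C4-2 control, 0.172% to 0.173% with ARv7, 0.169% to 0.175% in 22Rv-1 shcontrol and 0.178% to 0.182% with shARv7. ADAM15 was the most abundant per length in all 4 groups, at 55.6 ± 5.1, 65.9 ± 0.87, 60.0 ± 4.1 and 63.5 ± 1.2 FPKM (SD, n = 3 each). The classical secreted enzymes of tumour invasion were nearly absent. MMP2 gave 0 to 4 counts in every library. MMP9 had no count in any C4-2 library, which allows at most 0.244 CPM, and 7 to 14 counts in 22Rv-1 shcontrol and 2 to 10 with shARv7.

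**Figure D1:**
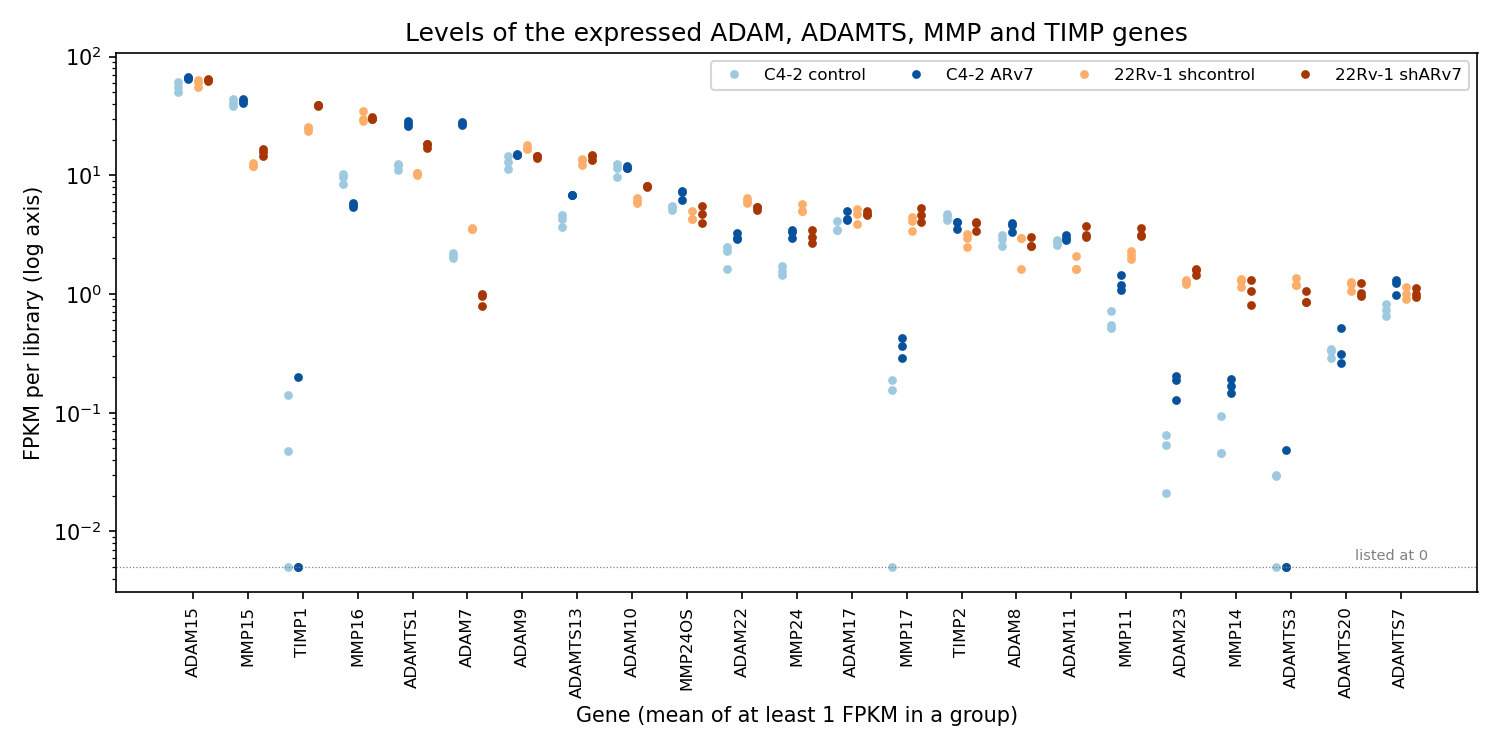
FPKM of each library on a log axis for the 23 genes with a mean of at least 1 FPKM in some group; each point is 1 library, coloured by group, and points on the dotted line are listed at 0. ADAM15 leads in all groups, while TIMP1, ADAM23, MMP17, MMP14 and ADAMTS3 have high points in 22Rv-1 and low or zero points in C4-2.

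Each line was tested on its own with edgeR. Of the 67 members, 26 passed the filter on low counts in C4-2, 33 in 22Rv-1, 23 in both and 31 in neither. In C4-2, 12 of 26 tested members (46.2%) were higher with ARv7 and 3 (11.5%) lower, where 29.6% of all 12783 tested genes were called higher and 29.5% lower. The median log2 fold change was 0.22 over tested members and 0.01 over all genes. In 22Rv-1, 11 of 33 tested members (33.3%) were higher after depletion and 6 (18.2%) lower, where 23.9% of all 13459 tested genes were called higher and 24.1% lower. The medians there were 0.07 and 0.01. A member can pass the filter through the group in which it is high, so these counts describe the tested members and are not evidence about the family. Total counts with no scaling factor moved the median of all genes to 0.15 in C4-2 and the share of calls that were higher from 50% to 67.2%, with 16 members then higher and 2 lower. Without C4-2 control replicate 3 the counts were 15 and 4, and without ARv7 replicate 3 they were 8 and 3.

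**Figure D2:**
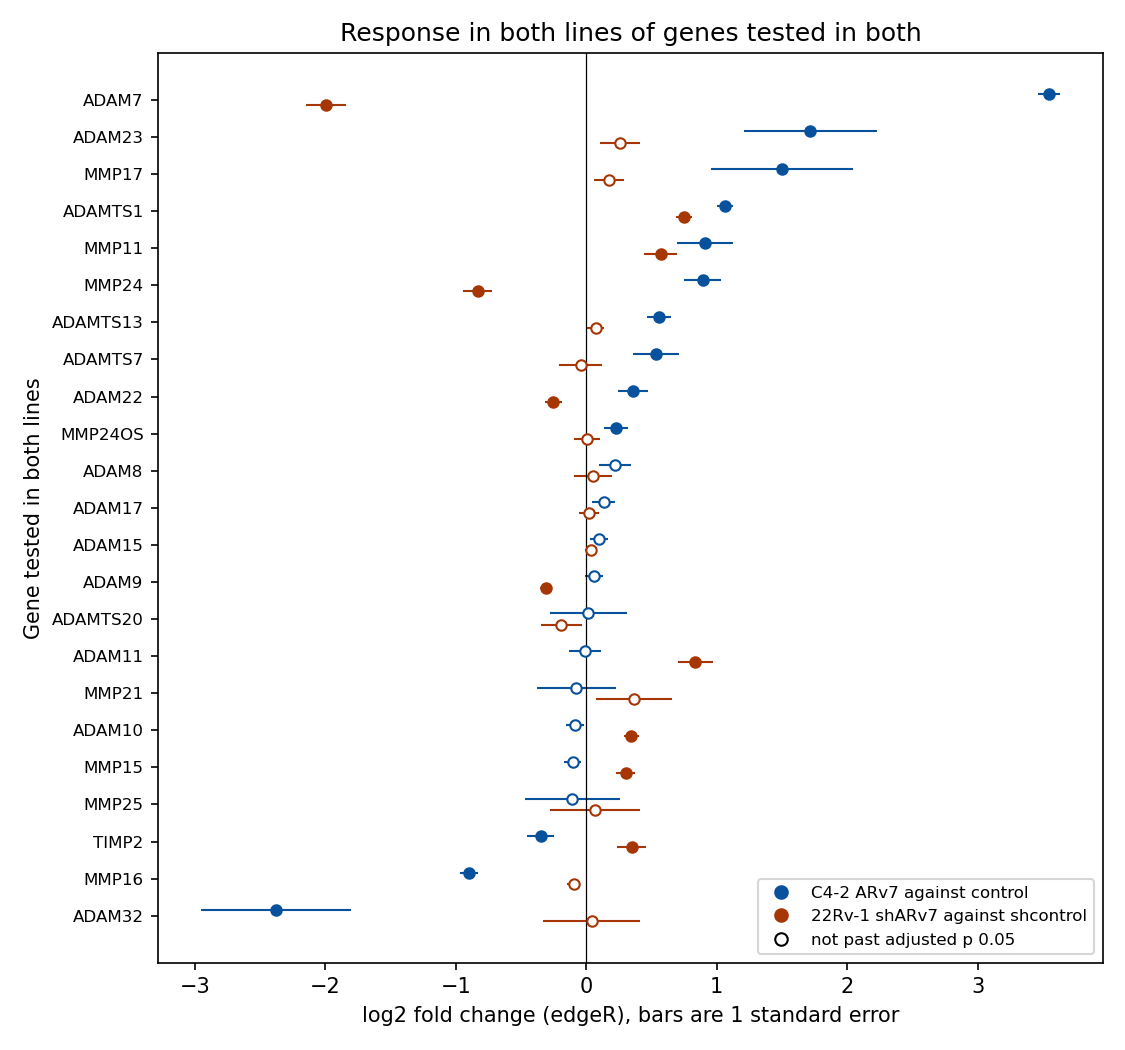
Log2 fold change in each line, with bars of 1 standard error, for the 23 members tested in both; filled points passed an adjusted p of 0.05 in edgeR and open points did not. ADAM7, MMP24 and ADAM22 lie right of 0 in C4-2 and left of it in 22Rv-1, TIMP2 the other way round, and ADAMTS1 and MMP11 lie right of 0 in both.

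Of the 23 members tested in both lines, 4 (17.4%) were called in both with opposite signs and 2 (8.7%) with the same sign, beside 16.5% and 14.1% of the 12080 genes tested in both. The share with opposite signs was thus close to that of all genes. ADAM7, ADAM22 and MMP24 were higher with ARv7 and lower on its depletion, and TIMP2 was lower with ARv7 and higher on depletion. ADAMTS1 and MMP11 were higher in both comparisons. The comparisons share no library.

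Among ADAM genes without a full active site, 3 of 5 tested (60%) were higher in C4-2 with ARv7 and 1 (20%) was lower, where 29.6% and 29.5% of all tested genes were called. In 22Rv-1, 1 of 5 (20%) was higher after depletion and 2 (40%) were lower, where 23.9% and 24.1% of all were called. ADAM7, an epididymal protein carried on sperm, gave the largest response of any tested member in C4-2. ADAM7 stood at 9.70, 10.4 and 9.67 CPM in control and at 114, 119.5 and 114 CPM with ARv7, an 11.7-fold difference (log2 3.54, SE 0.083; edgeR adjusted p = 1.39e-17). It stood in 22Rv-1 at 16.2, 16.0 and 16.5 CPM in shcontrol and at 4.29, 3.52 and 4.37 CPM with shARv7, 3.98-fold lower (log2 -1.99, SE 0.16; adjusted p = 6.44e-19). The groups were far apart in both lines, and the dishes of a group lay close together. ADAM7 was thus among the members near 1 FPKM in ARv7-depleted cells (0.92 ± 0.11) and one of the most abundant in C4-2 with ARv7 (27.2 ± 0.74 FPKM, beside 11.7 ± 0.26 for ADAM10). That order rests on gene length, listed as 4483 bases for ADAM7 and 15979 for ADAM10. In counts over the 3 ARv7 libraries, ADAM7 had 4982 and ADAM10 had 7650.

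ADAM7 lies on chromosome 8 at 24440930 to 24526970 (GRCh38, plus strand) in a cluster with ADAM28 and ADAMDEC1. The antisense genes AC120193.1 and AC024958.1 overlap ADAM7 on the opposite strand, and AC120193.1 also overlaps ADAM28. Reads of overlapping genes cannot be told apart here without strand. ADAMDEC1, which encodes a secreted relative and starts upstream of ADAM7 with a gap of 34917 bp, had no count in any library. ADAM28, 81916 bp away, gave 10 counts in C4-2 control and 36 with ARv7, and 24 and 28 in 22Rv-1 shcontrol and shARv7, over 3 libraries each. It did not pass the filter in C4-2, where the ratio was 3.85 (exact 95% counting interval 1.87 to 8.69), and was not called in 22Rv-1 (log2 0.26, SE 0.54; edgeR adjusted p = 0.724). Both neighbours were low in all groups. Farther along the chromosome were genes with more counts, such as DOCK5, 657719 bp away, with 1001 and 2214 counts over the C4-2 groups and 5434 and 3931 over the 22Rv-1 groups. NEFL, 423985 bp away, had 131 and 289, and 1070 and 1241, and STC1, 586124 bp away on the other side, had 7 and 23, and 1928 and 852. These are totals over 3 libraries, given with no test.

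ADAM22 and ADAM23, receptors for the secreted protein LGI1 in brain, were both expressed. ADAM22 stood at 29.04, 31.9 and 21.5 CPM in C4-2 control and at 34.6, 33.6 and 37.6 CPM with ARv7 (1.28-fold, log2 0.36, SE 0.11; edgeR adjusted p = 0.0112). The 22Rv-1 values were 75.1, 73.1 and 80.3 CPM in shcontrol and 61.6, 65.4 and 64.8 CPM with shARv7 (1.19-fold lower, log2 -0.25, SE 0.066; adjusted p = 0.000978). The groups did not overlap, but these are small differences. Against a fold of 1.2 with glmTreat neither was called (adjusted p = 0.172 and 0.679), and the C4-2 call was lost without ARv7 replicate 3 (adjusted p = 0.0565). ADAM23 gave 5, 2 and 6 counts in C4-2 control and 12, 17 and 16 with ARv7 (log2 1.72, SE 0.51; adjusted p = 0.00675), and 340 and 398 counts over the 22Rv-1 groups, where it was not called (log2 0.26; adjusted p = 0.158).

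ADAM32, a testis gene, went the other way in C4-2. It gave 30, 16 and 11 counts in control and 1, 7 and 3 with ARv7, 5.2-fold lower without overlap (log2 -2.38, SE 0.57; edgeR adjusted p = 0.00138), and was not called in 22Rv-1 (log2 0.04, SE 0.37). ADAM11, a brain protein of the same inactive group, stood at 13.7, 13.0 and 14.8 CPM in C4-2 control and 13.1, 14.5 and 13.6 CPM with ARv7, which overlapped. In 22Rv-1 it stood at 10.3, 7.98 and 7.98 CPM in shcontrol and 14.3, 14.99 and 17.6 CPM with shARv7, 1.78-fold higher without overlap (log2 0.84, SE 0.14; adjusted p = 3.09e-07).

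No sheddase with an active site passed the test in C4-2. Of 6 tested, edgeR called 0, where it called 59.1% of all tested genes, and 0 had an unadjusted p under 0.05; DESeq2 called 0 of the 4 described here. ADAM10, which cuts Notch, and ADAM17, which releases TNF and EGF receptor ligands, had log2 fold changes of -0.08 (SE 0.068) and 0.14 (SE 0.088), with adjusted p = 0.298 and 0.196. ADAM9 (0.06, SE 0.067; adjusted p = 0.468) and ADAM15 (0.09, SE 0.069; adjusted p = 0.25) likewise did not pass. ADAM15 stood at 343, 384 and 432 CPM in control and at 417, 414 and 406 CPM with ARv7. ADAM17 stood at 45.9, 39.1 and 40.2 CPM and then at 43.8, 43.3 and 50.6 CPM, ADAM10 at 206, 192 and 169 CPM and then at 176, 176 and 182 CPM, and ADAM9 at 264, 241 and 215 CPM and then at 248, 251 and 253 CPM. All 4 overlapped between the groups, and the control dishes were spread more widely than those with ARv7 for ADAM15, ADAM10 and ADAM9. These calls turned on the scaling. With total counts and no scaling factor, ADAM15 (log2 0.24), ADAM17 (0.28) and ADAM9 (0.20) were called higher, with adjusted p = 0.00269, 0.0145 and 0.0231, at a median of all genes of 0.15. In limma on log2(FPKM + 1), ADAM15 (0.24; adjusted p = 0.00758) and ADAM17 (0.23; adjusted p = 0.0401) were called higher too. IAH1, which overlaps ADAM17 on the opposite strand, was itself higher in C4-2 with ARv7 (log2 0.40, edgeR adjusted p = 0.000117). Reads of ADAM17 and IAH1 cannot be told apart without strand. Without control replicate 3, ADAM10 was called lower (-0.16; adjusted p = 0.00586) and ADAM15 higher (0.18; adjusted p = 0.000997).

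In 22Rv-1, 2 of 7 tested sheddases (28.6%) were higher after depletion and 1 (14.3%) was lower, beside 23.9% and 24.1% of all tested genes. ADAM10 stood at 95.5, 99.6 and 105 CPM in shcontrol and at 128, 126 and 127 CPM with shARv7 (1.27-fold, log2 0.34, SE 0.058; edgeR adjusted p = 5.42e-07). ADAM9 stood at 301, 304 and 325 CPM and then at 244, 254 and 252 CPM (1.24-fold lower, log2 -0.31, SE 0.048; adjusted p = 9.38e-08). Both pairs of groups were clear of each other, yet neither difference was called against a fold of 1.2 (glmTreat adjusted p = 0.105 and 0.222). TM2D2, which overlaps ADAM9 on the opposite strand, was higher there (log2 0.33; adjusted p = 0.00336), and reads of the pair cannot be told apart without strand. ADAM33, a sheddase studied in airway smooth muscle, gave 12, 25 and 8 counts in shcontrol and 29, 30 and 51 with shARv7 (2.46-fold, log2 1.30, SE 0.36; adjusted p = 0.00198). It had 1 count over all 6 C4-2 libraries. ADAM15 stood at 426, 409 and 371 CPM in shcontrol and at 406, 410.4 and 419 CPM with shARv7, and ADAM17 at 42.7, 51.1 and 56.1 CPM and then at 52.7, 49.3 and 49.9 CPM. Their groups overlapped, and neither was called (log2 0.03, SE 0.046, and 0.02, SE 0.079; adjusted p = 0.567 and 0.861).

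ADAMTS1 was the member of its family with most reads in C4-2 and was higher in both comparisons. It is a secreted enzyme that cuts the proteoglycans versican and aggrecan, encoded on chromosome 21 at 26835755 to 26845409 (GRCh38, minus strand). In C4-2 it stood at 93.5, 92.2 and 87.2 CPM in control and at 188, 201 and 181 CPM with ARv7 (2.09-fold, log2 1.06, SE 0.063; edgeR adjusted p = 2.19e-11). Values in 22Rv-1 were 77.5, 74.4 and 77.5 CPM in shcontrol and 122, 132 and 132 CPM with shARv7 (1.68-fold, log2 0.75, SE 0.060; adjusted p = 1.98e-18). The group with more ARv7 was thus the higher one in C4-2 and the lower one in 22Rv-1, with no overlap in either.

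The other proteoglycan-cutting members were rare. ADAMTS15 gave 22, 14 and 14 counts in C4-2 control and 41, 25 and 36 with ARv7 (1.97-fold, log2 0.98, SE 0.34; edgeR adjusted p = 0.0177), and 2 counts over all 6 22Rv-1 libraries. Its call was lost in DESeq2 (adjusted p = 0.0525) and without control replicate 2, ARv7 replicate 1 or ARv7 replicate 3 (edgeR adjusted p = 0.0735, 0.0718 and 0.072). ADAMTS4, an aggrecanase, fell on depletion in 22Rv-1. It gave 38, 40 and 52 counts in shcontrol and 7, 17 and 3 with shARv7 (4.64-fold lower, log2 -2.21, SE 0.39; adjusted p = 1.38e-06). It had 9 and 8 counts in the C4-2 groups and was not tested there.

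Of the 9 remaining ADAMTS genes, 3 passed the filter in C4-2, and these 3 were higher, where 29.6% of all tested genes were. In 22Rv-1, 1 of 4 tested (25%) was higher and 0 lower, beside 23.9% and 24.1% of all. ADAMTS17, linked to fibrillin microfibrils, gave 37, 33 and 31 counts in control and 80, 84 and 109 with ARv7 (2.63-fold, log2 1.39, SE 0.24; edgeR adjusted p = 4.72e-05), and 3 and 7 counts in the 22Rv-1 groups. ADAMTS13, the protease of von Willebrand factor, had log2 0.56 (SE 0.091; adjusted p = 3.1e-05), and ADAMTS7, whose pseudogenes may share reads with it, 0.54 (SE 0.18; adjusted p = 0.0127). In 22Rv-1, ADAMTS6 gave 13, 9 and 7 counts in shcontrol and 25, 23 and 22 with shARv7 (2.45-fold, log2 1.29, SE 0.41; adjusted p = 0.00698). That call was lost without shcontrol replicate 3 (adjusted p = 0.0501).

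The procollagen N-propeptidases, which trim fibrillar procollagens, were tested in 22Rv-1 alone. ADAMTS2 gave 2, 0 and 0 counts in shcontrol and 12, 11 and 22 with shARv7 (log2 4.28, SE 0.82; edgeR adjusted p = 7.88e-06). As a ratio of counts that is 23.8, with an exact 95% counting interval of 6.20 to 202. ADAMTS3 was 1.39-fold lower (log2 -0.47, SE 0.17; adjusted p = 0.0157). Members of 1 small group thus moved in opposite directions, at 45 and 259 counts in the shARv7 libraries.

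**Figure D3:**
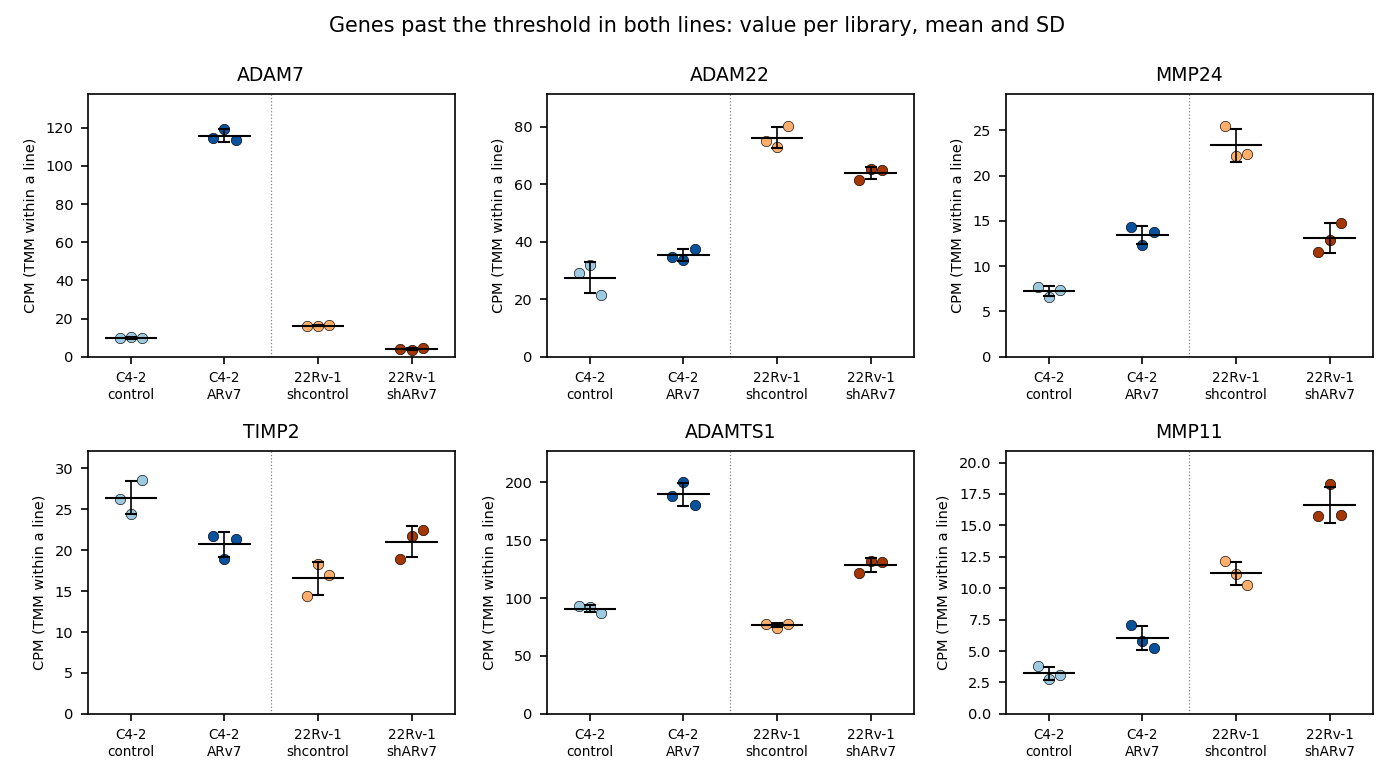
CPM of each library, normalized by TMM within a line, for the 6 members called in both lines; points are libraries, the long bar is the mean and the whiskers are the SD of 3 libraries. In the top row and for TIMP2 the groups separate in opposite directions in the lines, while ADAMTS1 and MMP11 are higher in the right-hand group of each line.

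Membrane-type MMPs sit on the cell surface and activate other MMPs or cut matrix next to the cell. MMP24, on chromosome 20 at 35226690 to 35276998 (GRCh38, plus strand), was higher in the group with more ARv7 in both lines. It stood at 7.72, 6.62 and 7.42 CPM in C4-2 control and at 14.3, 12.4 and 13.7 CPM with ARv7 (1.85-fold, log2 0.89, SE 0.14; edgeR adjusted p = 2.17e-05). In 22Rv-1 it stood at 25.5, 22.2 and 22.4 CPM in shcontrol and at 11.5, 12.9 and 14.8 CPM with shARv7 (1.78-fold lower, log2 -0.83, SE 0.11; adjusted p = 2.58e-09). The groups did not overlap in either line. MMP24OS, on the opposite strand, overlapped between the C4-2 groups although it was called (log2 0.23, SE 0.093; adjusted p = 0.0412), and was not called in 22Rv-1 (log2 0.01, SE 0.10).

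MMP16 was the most abundant membrane-type member in 22Rv-1 and fell with ARv7 in C4-2. It stood at 129, 122 and 110.1 CPM in C4-2 control and at 66.7, 62.4 and 64.7 CPM with ARv7 (1.86-fold lower, log2 -0.90, SE 0.071; edgeR adjusted p = 1.87e-09). In 22Rv-1 its groups overlapped, at 351 to 426 CPM in shcontrol and 351 to 367 CPM with shARv7 (log2 -0.10; adjusted p = 0.098). MMP17, held by a GPI anchor, gave 9, 11 and 0 counts in C4-2 control and 17, 24 and 18 with ARv7 (log2 1.50, SE 0.54; adjusted p = 0.023). That value leans on the 0 in control replicate 3, without which it was 0.94 and not called (adjusted p = 0.0881). The call was also lost in DESeq2 (adjusted p = 0.0553) and without ARv7 replicate 2 or 3 (edgeR adjusted p = 0.0867 and 0.0516).

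MMP15, the most abundant membrane-type member in C4-2, had 1.23-fold higher levels after depletion in 22Rv-1 (log2 0.30, SE 0.071; edgeR adjusted p = 0.000249) and was not called in C4-2 (-0.10, SE 0.067; adjusted p = 0.193). MMP14, the main activator of MMP2, gave 3, 3 and 6 counts in C4-2 control and 11, 12 and 8 with ARv7, too few for the test, a ratio of 2.76 with a counting interval of 1.38 to 5.90. In 22Rv-1 it gave 73, 78 and 84 counts in shcontrol and 47, 76 and 66 with shARv7, which overlapped, and was not called (log2 -0.28, SE 0.21; adjusted p = 0.26).

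Among stromelysins, which cut proteoglycans and laminin, MMP11 was higher in both comparisons. MMP11, activated by furin inside the cell, stood at 3.82, 2.78 and 3.07 CPM in C4-2 control and at 7.08, 5.81 and 5.24 CPM with ARv7 (1.88-fold, log2 0.91, SE 0.22; edgeR adjusted p = 0.00123). In 22Rv-1 it stood at 12.1, 11.2 and 10.3 CPM in shcontrol and at 15.7, 18.3 and 15.8 CPM with shARv7 (1.48-fold, log2 0.57, SE 0.13; adjusted p = 0.000105). The groups did not overlap, and CHCHD10, which overlaps MMP11 on the opposite strand, was called in neither line (log2 -0.24 and -0.23). MMP10 gave 4, 9 and 2 counts in 22Rv-1 shcontrol and 18, 25 and 19 with shARv7 (4.13-fold, log2 2.05, SE 0.50; adjusted p = 0.000414), and 2 and 10 counts in the C4-2 groups. MMP1, a collagenase beside MMP10 in the MMP cluster of chromosome 11 and singled out after its values were seen, gave 3 counts in shcontrol and 19 with shARv7, a ratio of 6.69 with a counting interval of 1.97 to 35.3. It had no count in C4-2. The pseudogene WTAPP1 overlaps both MMP10 and MMP1 on the opposite strand, and its reads cannot be told apart from theirs without strand.

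RefSeq promoter sequences (GRCh38.p14) were at hand for 40 of the 67 members. The 250 bases before the start were searched on both strands for the AP-1 site TGACTCA, the TATA box TATAAA, the CCAAT box CCAAT, the GC box GGGCGG, the E-box CACGTG and the E2F site TTTCCCGC. The AP-1 site was in 2.5% of the 40 members and 4.2% of all 27305 promoters, the TATA box in 17.5% and 11.1%, the CCAAT box in 40.0% and 33.0%, the GC box in 67.5% and 42.3%, the E-box in 12.5% and 6.5%, and the E2F site in 0.0% and 1.4%. The AP-1 share of the members is 1 promoter, that of MMP7. MMP1, MMP3, MMP9, MMP12 and MMP13 had no sequence at hand, so these shares do not describe the whole family. Of the members called in both lines, ADAM7, ADAMTS1 and TIMP2 had no promoter sequence at hand. Shown are the others, ADAM22, MMP24 and MMP11, and MMP10, picked by hand, which was higher in 22Rv-1 after depletion. They lie at chr7:87934001-87934250 (plus strand), chr20:35226440-35226689 (plus), chr22:23772599-23772848 (plus) and chr11:102780629-102780878 (minus). Capitals mark matches to the TATA, CCAAT and GC boxes, read 5′ to 3′ and ending at the last base before the RefSeq start.
ADAM22: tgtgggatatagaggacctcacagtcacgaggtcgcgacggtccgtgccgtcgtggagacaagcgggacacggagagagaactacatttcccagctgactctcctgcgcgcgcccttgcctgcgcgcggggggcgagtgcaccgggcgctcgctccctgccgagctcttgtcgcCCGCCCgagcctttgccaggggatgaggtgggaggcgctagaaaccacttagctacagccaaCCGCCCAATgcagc
MMP24: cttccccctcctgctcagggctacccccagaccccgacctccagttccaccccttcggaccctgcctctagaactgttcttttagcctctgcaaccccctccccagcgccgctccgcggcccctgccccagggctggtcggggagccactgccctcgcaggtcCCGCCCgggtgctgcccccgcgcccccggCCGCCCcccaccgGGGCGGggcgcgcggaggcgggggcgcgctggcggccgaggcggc
MMP11: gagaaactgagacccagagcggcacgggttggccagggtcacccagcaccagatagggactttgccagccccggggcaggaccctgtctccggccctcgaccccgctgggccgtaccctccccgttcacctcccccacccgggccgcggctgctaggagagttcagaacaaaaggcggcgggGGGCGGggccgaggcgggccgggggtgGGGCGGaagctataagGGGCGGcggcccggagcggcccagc
MMP10: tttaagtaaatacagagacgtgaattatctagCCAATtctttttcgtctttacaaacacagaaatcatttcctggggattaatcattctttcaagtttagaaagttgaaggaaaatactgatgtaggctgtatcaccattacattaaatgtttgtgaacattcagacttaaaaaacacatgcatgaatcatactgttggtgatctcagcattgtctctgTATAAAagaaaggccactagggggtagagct
MMP24 and MMP11 each hold 3 GC boxes, the nearest 45 to 40 and 25 to 20 bases before the start. ADAM22 has a GC box and a CCAAT box that overlap, the first 14 to 9 and the second 10 to 6 bases before the start. MMP10 differs from them by a TATA box, 31 to 26 bases before the start, and no GC box. A match describes the letters in this window and shows no binding.

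TIMPs bind the active site of MMPs and of some ADAMs, and TIMP1 was the inhibitor that most separated the lines. It lies on chromosome X at 47582408 to 47586789 (GRCh38, plus strand). In 22Rv-1 it stood at 37.8, 36.7 and 34.4 CPM in shcontrol and at 56.4, 55.7 and 54.8 CPM with shARv7 (1.53-fold, log2 0.62, SE 0.077; edgeR adjusted p = 1.81e-10). In C4-2 it gave 1, 3 and 0 counts in control and 0, 4 and 0 with ARv7. Its groups in 22Rv-1 were clear of each other, and SYN1, in which TIMP1 lies on the opposite strand, was lower there (176 and 105 counts, log2 -0.71; adjusted p = 0.0163). In FPKM, TIMP1 became the second most abundant member in ARv7-depleted cells (39.1 ± 0.45), above MMP16 (30.0 ± 0.60). In counts over those 3 libraries TIMP1 was the lower, at 2253 beside 14503 for MMP16. Their listed lengths are 1446 and 12108 bases.

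TIMP2, which inhibits MMPs and also helps MMP14 activate MMP2, moved in opposite directions in the lines. It stood at 26.3, 24.5 and 28.6 CPM in C4-2 control and at 21.8, 19.0 and 21.4 CPM with ARv7 (1.27-fold lower, log2 -0.35, SE 0.10; edgeR adjusted p = 0.00645). Levels in 22Rv-1 were 14.4, 18.3 and 16.99 CPM in shcontrol and 18.9, 21.8 and 22.4 CPM with shARv7 (1.27-fold, log2 0.35, SE 0.11; adjusted p = 0.00691). The groups did not overlap, but the margin was narrow. The C4-2 call was lost with total counts (adjusted p = 0.0953), in limma on log2(FPKM + 1) (0.0874) and against a fold of 1.2 (0.166), and the 22Rv-1 call without shcontrol replicate 1 (0.0826), without shARv7 replicate 3 (0.0546) and against a fold of 1.2 (0.272). TIMP3, an inhibitor bound to the matrix, gave 2, 6 and 7 counts in C4-2 control and none with ARv7, at least 4.68-fold lower against a floor of 3 counts over the group. It gave 1, 1 and 6 counts in 22Rv-1 shcontrol and 17, 19 and 10 with shARv7, a ratio of 6.07 with a counting interval of 2.84 to 14.9, and passed the filter in neither line.

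**Figure D4:**
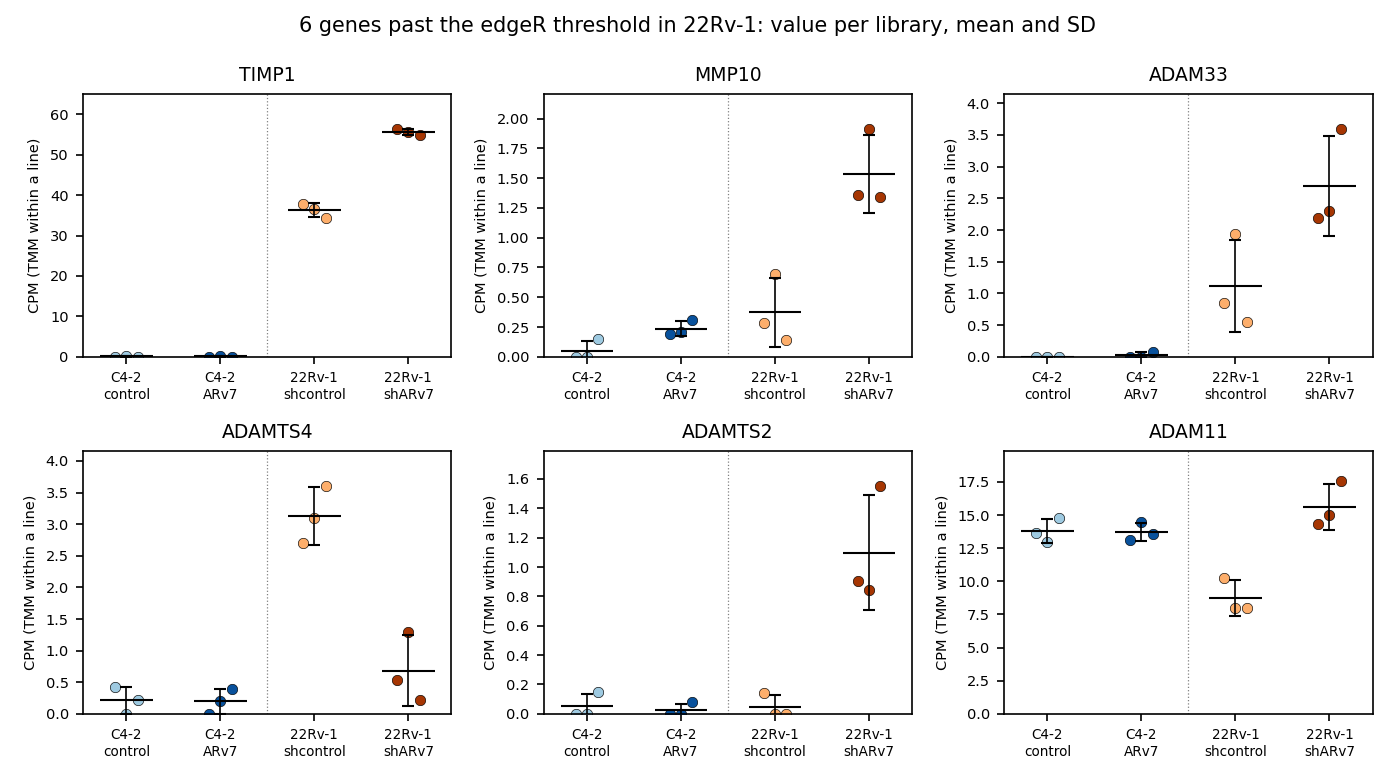
CPM of each library, normalized by TMM within a line, for 6 members called in 22Rv-1; points are libraries, the long bar is the mean and the whiskers are the SD of 3 libraries. TIMP1, MMP10, ADAM33, ADAMTS2 and ADAM11 are higher with shARv7 and ADAMTS4 lower, and all but ADAM11 are near 0 in both C4-2 groups.

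A single fit of all 12 libraries tested whether the difference between the cells with more and with less ARv7 was of another size in C4-2 than in 22Rv-1. Of 37 tested members, 11 (29.7%) had a higher and 3 (8.11%) a lower value in C4-2, where 27.4% and 23.3% of all 14235 tested genes did. ADAM7 rose with ARv7 by more in C4-2 than it fell on depletion in 22Rv-1 (difference of log2 changes 1.56, SE 0.17; edgeR adjusted p = 5.54e-10). ADAMTS1 and MMP11, higher in both comparisons, differed by 1.82 (SE 0.085; adjusted p = 1.15e-19) and 1.49 (SE 0.24; adjusted p = 2.3e-06). MMP24 (0.07, SE 0.18; adjusted p = 0.801), ADAM22 (0.11, SE 0.13; adjusted p = 0.5) and TIMP2 (0.00, SE 0.16; adjusted p = 0.997) showed no difference past the threshold, which does not show that the responses are equal. With total counts and no scaling factor 16 members were called higher and 2 lower, and 72% rather than 54% of all calls were higher.

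The widest differences among members lay between the lines at baseline. Between the control groups, which are also the controls of the ARv7 comparisons, 17 of 37 tested members (45.9%) were higher in 22Rv-1 shcontrol and 10 (27%) in C4-2 control, where 42.5% and 40.9% of all tested genes were called. Calls of at least 2-fold held for 15 and 5 of the 37, beside 24.9% and 19.9% of all. TIMP1 gave 1502 counts in 22Rv-1 shcontrol and 4 in C4-2 control, a ratio of 389.5 (exact 95% counting interval 152 to 1431). ADAMTS3 (368 and 6 counts, ratio 63.6), MMP17 (672 and 20, 34.8), ADAM23 (340 and 13, 27.1), MMP14 (235 and 12, 20.3) and ADAMTS4 (130 and 9, 14.98) were also higher in 22Rv-1. ADAM33 gave 45 counts against none, at least 15.6-fold higher against a floor of 3 counts over the group. Going the other way, ADAMTS17 gave 3 and 101 counts and ADAMTS15 gave 2 and 50, in 22Rv-1 and C4-2. MMP15 was 3.70-fold (log2 -1.89, SE 0.069) and ADAM10 2.02-fold (log2 -1.01, SE 0.062) lower in 22Rv-1, with edgeR adjusted p = 1.64e-24 and 1.75e-17. Line, vector and hairpin cannot be told apart in this comparison.

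Genes around the proteases were read from lists of activators and inhibitors, partners, substrates and regulators. Their shares called stand beside 29.6% higher and 29.5% lower of all tested genes in C4-2 with ARv7, and 23.9% and 24.1% in 22Rv-1 after depletion, with a median log2 fold change of 0.01 over all genes in each. Of 29 activators and inhibitors, 7 of 16 tested (43.8%) were higher and 5 (31.2%) lower in C4-2, where their median was -0.01. In 22Rv-1, 7 of 17 (41.2%) were higher and 5 (29.4%) lower, with a median of 0.24. SPOCK1, a matrix proteoglycan that inhibits MMP activation, was higher with ARv7 (log2 1.79, SE 0.064) and lower on depletion (-2.19, SE 0.066). FURIN, the convertase that removes the prodomain of ADAMs, ADAMTSs and membrane-type MMPs, was lower with ARv7 (-1.12, SE 0.082) and higher on depletion (0.62, SE 0.056). All 4 of these differences passed edgeR's threshold (adjusted p = 7.94e-15, 1.76e-43, 5.76e-10 and 4.39e-16) without overlap of groups. CST3 (1.07, SE 0.075), which encodes the cysteine protease inhibitor cystatin C, and BSG (0.43, SE 0.043), the MMP inducer basigin, were higher after depletion in 22Rv-1.

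Of 11 partners of ADAM10 and ADAM17, 4 (36.4%) were higher and 3 (27.3%) lower in C4-2 (median log2 fold change 0.17), near the 29.6% and 29.5% of all genes. In 22Rv-1, 6 (54.5%) were higher and 0 lower (median 0.29), beside 23.9% and 24.1% of all. The tetraspanins TSPAN15 (log2 1.56, SE 0.17; adjusted p = 9.93e-13) and TSPAN33 (1.25, SE 0.15; adjusted p = 1.39e-11), which carry ADAM10 to the surface, were higher after depletion in 22Rv-1, where ADAM10 was too. RHBDF2 and FRMD8, which bring ADAM17 to the surface, were higher there by 0.56 (SE 0.10) and 0.41 (SE 0.080), with ADAM17 itself not called. In C4-2, TSPAN5 was higher (1.35, SE 0.15) and TSPAN14 lower (-0.40, SE 0.063) with ARv7. As ratios of total counts there, RHBDF2 (1.573), TSPAN33 (1.446) and TSPAN15 (1.285) were also higher with ARv7, and FRMD8 (0.870) was lower. With total counts the median log2 fold change of all genes in C4-2 was 0.15.

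Of 30 shed substrates, 4 of 18 tested (22.2%) were higher and 10 (55.6%) lower in C4-2 with ARv7, beside 29.6% and 29.5% of all genes, with a median log2 fold change of -0.27. In 22Rv-1, 11 of 21 (52.4%) were higher and 5 (23.8%) lower after depletion, beside 23.9% and 24.1% of all, with a median of 0.47. APP (log2 -1.63, SE 0.055) and JAG1 (-1.02, SE 0.059) were lower in C4-2 and NOTCH2 was higher (0.74, SE 0.076). TGFA, a ligand of the EGF receptor freed by ADAM17, was lower with ARv7 (-1.01, SE 0.13) and higher on depletion (2.44, SE 0.24), with edgeR adjusted p = 1.34e-06 and 1.58e-14. NOTCH3 (1.89, SE 0.082) and CD44 (1.26, SE 0.13) were higher after depletion. Of 24 matrix substrates only 8 passed the filter in C4-2, of which 7 (87.5%) were higher and 1 (12.5%) lower, beside 29.6% and 29.5% of all genes. The rest include COL3A1, a fibrillar collagen singled out after its values were seen, which had 42 counts in control and 4 with ARv7. In 22Rv-1, 8 of 18 (44.4%) were higher and 4 (22.2%) lower, beside 23.9% and 24.1% of all. FBN1, fibrillin, was the tested one that fell in C4-2 (-4.48, SE 0.18; adjusted p = 5.39e-14), while HSPG2, perlecan, was higher in both comparisons (1.41, SE 0.12, and 1.35, SE 0.13). FN1, fibronectin, stood at 67.2, 61.8 and 56.6 CPM in 22Rv-1 shcontrol and at 679, 732 and 725 CPM with shARv7 (3.52, SE 0.054; adjusted p = 2e-63). LUM, a fibroblast marker, was lower there (-3.25, SE 0.16), as was the sum of the fibroblast markers given above. The single markers did not move together. Of 4 fibroblast markers tested in 22Rv-1, 2 (50%) were higher and 2 (50%) lower, beside 23.9% and 24.1% of all genes. COL1A1 had 727 counts in shcontrol and 891 with shARv7, COL3A1 had 179 and 290, and DCN had 100 and 7.

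Of 21 transcription factors known for MMP and ADAMTS genes, 5 of 16 tested (31.2%) were higher and 8 (50%) lower in C4-2, beside 29.6% and 29.5% of all genes (median log2 fold change -0.16). In 22Rv-1, 7 of 18 (38.9%) were higher and 5 (27.8%) lower, beside 23.9% and 24.1% of all (median 0.02). NFKB1 (log2 -1.22, SE 0.069), JUND (-0.97, SE 0.068) and ELF3 (-1.41, SE 0.10) were lower with ARv7 in C4-2. JUNB (0.87, SE 0.068), ELF3 (0.59, SE 0.072) and ETV4 (0.69, SE 0.091) were higher after depletion in 22Rv-1, and all 6 passed edgeR's threshold with no overlap of groups. Their part in the protease levels was not tested.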

How the data were processed

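RNA-seq of 12 libraries in 4 groups of 3 was used. The authors deposited 1 table of raw read counts per gene and FPKM, counts that they scaled to gene length and library total. Reads were trimmed with Cutadapt 2.7 per the submitters' processing notes. For aligner, counter and strand, nothing is given in the sources used here, so overlapping genes cannot be separated. The notes name hg18, but all 67 members lay within 10000 bp of GENCODE on GRCh38, so the table's coordinates are given as GRCh38. Of 19974 lines, 1 without a gene identifier was left out.

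Counts were tested in R 4.3.3 with edgeR 4.0.16 (filterByExpr, TMM, glmQLFit, quasi-likelihood F-test), each line on its own, and in 1 fit of all libraries for the difference of responses and for the controls of the lines. Benjamini-Hochberg adjustment ran over all tested genes, with a threshold of 0.05. CPM is TMM-normalized within a line, and FPKM is used to compare genes. Ratios and bounds of low genes use total counts. Intervals are exact at 95%. Scripts were tested on simulated data. The check of the labels by the targeted gene and some other values are not reported here.

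Per-library values, or their range where counts were low, were given for up to 10 called members with the largest change per ARv7 comparison among those with a mean of at least 1 CPM in the higher group, for members called in both, and for ADAM7, ADAM9, ADAM10, ADAM15, ADAM17, MMP2, MMP9, MMP14 and the TIMPs. ADAM28, ADAM19, ADAMTS3, ADAMTS7, ADAMTS12, ADAMTS13, MMP1, MMP15 and MMP24OS were named after their values were seen. From each list of other genes up to 4 with the smallest adjusted p were named per comparison. Members and lists were chosen with earlier results of these data known. Alternatives were DESeq2 1.42.0, its size factors, total counts, other filters, a replicate block, limma 3.58.1 on log2(FPKM + 1), glmTreat against a fold of 1.2, 1 fit of all libraries and leaving out each library.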

Additional observations from a re-analysis of the deposited data

Results flagged for a closer look

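The response of 14 of 37 tested members (37.8%) to ARv7 differed between the lines in the fit of all 12 libraries with edgeR, a smaller share than the 50.7% of all 14235 tested genes. Each value below is the log2 difference of cells with more against less ARv7 in C4-2 minus the same in 22Rv-1, with its adjusted p. The largest was 4.14 for MMP10 (adjusted p = 0.00467), which rests on 2 and 10 counts in C4-2. It was 1.82 for ADAMTS1 (1.15e-19), 1.56 for ADAM7 (5.54e-10) and 1.49 for MMP11 (2.3e-06). ADAM23 had 1.98 (0.000752), MMP17 1.67 (0.00341), ADAM11 0.836 (0.000334) and ADAMTS13 0.634 (9.48e-06).

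Some of these were less firm. ADAMTS17 had 2.56 (edgeR adjusted p = 0.0383), on 3 and 7 counts in 22Rv-1, and was not called when any of 6 libraries was left out (adjusted p = 0.0533 to 0.12). ADAM28 had 2.04 (adjusted p = 0.043) on 10 to 36 counts per group. ADAM10 had 0.266 (adjusted p = 0.0104) and was not called against a fold of 1.2 (0.409). ADAM9 had -0.241 (adjusted p = 0.0134) and was not called with total counts (-0.06, adjusted p = 0.616). MMP16 had -0.986 (adjusted p = 1.76e-11) and ADAM32 -2.33 (adjusted p = 0.0079).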

How the results depend on the processing

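No recomputed value of a single gene that was called, in the main fit or under an alternative, changed direction. Members named after their values were seen were not recomputed. Of 1517 values of single named genes under alternatives, 1458 kept their side of the threshold, 23 gained a call and 36 lost one. Direction was not compared where neither value was called. With a mean of at least 5 CPM, 7 members were higher in C4-2 with ARv7 and 7 in 22Rv-1 after depletion, and 11 were higher and 6 lower in 22Rv-1 shcontrol than in C4-2 control, where fewer members were tested. In limma on log2(FPKM + 1), 1 member was lower in C4-2 and 7 were higher in 22Rv-1, 1 had a lower response in C4-2 than in 22Rv-1, and 10 were higher and 5 lower between the controls. Against a fold of 1.2 with glmTreat 3 were lower in 22Rv-1. Leaving out 1 library at a time gave 8 to 15 higher and 3 to 4 lower in C4-2, 11 to 12 and 5 to 7 in 22Rv-1, 9 to 14 and 2 to 4 for the difference of responses, and 17 to 19 and 9 to 10 between the controls. Over all tested genes, same-numbered libraries did not deviate together (correlations of -0.058 to 0.0201). A deviation shared by few genes would not show in such a correlation, so it cannot decide whether the numbers pair the libraries. With the replicate block 11 members were higher and 3 lower in C4-2, 11 and 6 in 22Rv-1, 10 and 3 for the difference and 17 and 10 between the controls. Genes under about 10 counts per library are limited by depth, and members that failed the filter were given as counts.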

Other observations

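ADAM19 gave no count in 22Rv-1 shcontrol and 18 counts over the shARv7 libraries, at least 6.33-fold higher against a floor of 3 counts over the group. CYFIP2, which overlaps it on the opposite strand, rose there from 45 to 858 counts (log2 4.27; edgeR adjusted p = 5.47e-33), and reads of the pair cannot be told apart without strand. ADAM19 was chosen after its values were seen. ADAMTS12, also chosen after its values were seen, gave 4 counts in C4-2 control and 28 with ARv7, a ratio of 7.48 with an exact 95% counting interval of 2.62 to 29.4.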
